A study of Mus musculus with 6 samples.

Results

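Hypoxia-inducible factors (HIFs) are transcription factors whose alpha subunit, HIF-1α or HIF-2α, is hydroxylated and degraded when oxygen is plentiful and accumulates when it is scarce. With its partner ARNT the alpha subunit binds a short core motif in DNA and switches on genes for glucose use, blood vessel growth, mitochondrial turnover and matrix modification. Many glycolytic targets are known mainly as HIF-1 genes, and others, such as Vegfa, are targets of both factors. The liver lies across an oxygen gradient from the portal to the central vein, and HIF-2α in hepatocytes has been tied to lipid storage.

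Described here are 35 genes of the hypoxia response, chosen by name and read from a deposited table of 54600 gene rows in mouse liver. Each symbol was found through its Ensembl identifier. Aldoa had 2 rows, and the row with the higher mean was used. The 6 liver libraries carry 2 labels, 3 libraries each: wild type (WT), and knockout (KO) of HIF-2α confined to hepatocytes. Every mouse had been fed a high-fat diet, for 16 weeks. No driver of the deletion, and no age, sex or strain, is named in the labels. Replicates are numbered 1 to 3 under both labels, and nothing says that each is a separate animal, so a p-value covers only the spread among these libraries, which may be technical. Values are TPM, each gene's share of the transcripts of a library, which allow for transcript length and add up to an equal total for each library. Such values keep no read totals, so the depth is unknown.

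The targeted gene did not separate the labels in the direction of a deletion. Epas1, which encodes HIF-2α (chromosome 17, 86753700 to 86833410 in mm10), was at 23.8, 26.0 and 21.0 TPM under the WT label and at 26.6, 35.1 and 29.4 TPM under the KO label. Each library labelled KO lay above each one labelled WT, against 8.23% of all tested genes. The difference was +0.34 on the log2(TPM + 1) scale (limma, unadjusted p = 0.050, adjusted p = 0.993). With a block for the replicate number the unadjusted limma p was 0.017. After median-ratio scaling the difference was +0.24 and the groups overlapped, at 23.0 to 26.5 and 25.1 to 32.4 TPM. The TPM covers the whole gene and every liver cell type, including the cells in which a hepatocyte-specific deletion leaves Epas1 intact. Each direction given here is therefore one of labels, and a value under the KO label is that of a library labelled KO. Hif1a, which encodes HIF-1α, was at 12.4, 13.1 and 10.8 TPM under the WT label and at 12.8, 15.5 and 11.3 TPM under the KO label, and the groups overlapped.

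A total of 8 hepatocyte markers, among them Alb and Hnf4a, passed the filter and made up 5.10% to 5.96% of the TPM under the WT label and 5.61% to 7.42% under the KO label. Markers of other liver cells were present. Summed over the whole list, 10 endothelial markers were at 137 to 148 TPM under the WT label and at 145 to 166 TPM under the KO label. The 12 stellate cell and fibroblast markers were at 149 to 178 TPM and at 179 to 206 TPM, without overlap, and 5 of 11 tested had an unadjusted limma p below 0.05 with higher values under the KO label, against 2.76% of all tested genes. After the libraries were divided by their median ratio to one another, a second scaling used throughout, the stellate sums overlapped, at 169 to 175 and 169 to 192 TPM. The 6 cholangiocyte markers were at 25.3 to 35.7 and 35.6 to 56.6 TPM. After median-ratio scaling their sums did not overlap, at 28.8 to 34.5 and 36.3 to 52.3 TPM. Of these markers, 2 were tested. An unadjusted limma p below 0.05 with higher values under the KO label was found for 1, against 2.76% of all tested genes. The 8 Kupffer cell and macrophage markers were at 163 to 233 and 201 to 220 TPM. The 6 erythroid markers were at 634 to 1048 and 798 to 1830 TPM, and the 6 lymphocyte and neutrophil markers at 3.38 to 11.6 and 7.63 to 9.35 TPM. No marker was listed at 0 in all 6 libraries. Their part in the values of the HIF target genes was not tested. In bulk liver, fewer cells of a type and less RNA per cell cannot be told apart.

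The HIF core motif is ACGTG or GCGTG, and it was searched on both strands of RefSeq promoter windows (GRCm38.p6), which run from 250 bases before a transcript start to 50 bases after it. Windows were found for 30 of the 35 genes. Bhlhe40, Ccnd1, Lox, Ndrg1 and Pdgfb had none in the table. A match was present for 28 of these 30 genes (93.3%), against 46.7% of 27025 genes with a window in the table, and the exceptions were the glycolytic genes Gpi1 and Tpi1. Of the 44 windows, some of which overlap, 36 held a match (81.8%, against 43.8% of all 32851 windows). ACGTG alone was present for 19 of 30 genes (63.3%, against 21.8%). Both motifs contain the dinucleotide CG, and the median window held 24 CG dinucleotides for the HIF target genes and 7 over all windows. The part of CG content in the share was not tested. ACGTG also lies inside the E-box CACGTG, where it counts on both strands, and GCGTG is the core that the aryl hydrocarbon receptor binds. A match describes these letters only and does not show that HIF binds there.

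The upstream parts of 7 promoters are given because these genes carry the comparisons that follow: Kdm3a and Ankrd37, whose libraries did not overlap between labels, Ddit4, Narf and Hilpda, the next by p-value, and Ldha and Bnip3, which hold the most matches in a single window and were added after the counts were seen. Each is 250 bases long and is read on the strand of the gene, with the core motif of either strand in capitals.
Kdm3a chr6:71632918-71633167, minus strand: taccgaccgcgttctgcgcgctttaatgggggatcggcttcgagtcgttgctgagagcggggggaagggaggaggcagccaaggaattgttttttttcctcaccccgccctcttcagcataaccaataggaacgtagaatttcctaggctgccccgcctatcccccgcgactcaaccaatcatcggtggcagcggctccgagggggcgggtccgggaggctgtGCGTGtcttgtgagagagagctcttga
Ankrd37 chr8:45999851-46000100, minus strand: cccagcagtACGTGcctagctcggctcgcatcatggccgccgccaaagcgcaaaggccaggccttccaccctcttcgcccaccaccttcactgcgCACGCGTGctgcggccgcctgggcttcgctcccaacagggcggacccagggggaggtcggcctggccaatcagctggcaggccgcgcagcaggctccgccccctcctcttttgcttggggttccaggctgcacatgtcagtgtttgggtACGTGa
Ddit4 chr10:59951771-59952020, minus strand: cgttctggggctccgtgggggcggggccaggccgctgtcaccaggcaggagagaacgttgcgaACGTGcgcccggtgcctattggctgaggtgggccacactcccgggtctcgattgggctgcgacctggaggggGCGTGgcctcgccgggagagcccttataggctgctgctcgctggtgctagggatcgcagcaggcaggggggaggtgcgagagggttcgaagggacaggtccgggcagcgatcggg
Narf chr11:121236986-121237235, plus strand: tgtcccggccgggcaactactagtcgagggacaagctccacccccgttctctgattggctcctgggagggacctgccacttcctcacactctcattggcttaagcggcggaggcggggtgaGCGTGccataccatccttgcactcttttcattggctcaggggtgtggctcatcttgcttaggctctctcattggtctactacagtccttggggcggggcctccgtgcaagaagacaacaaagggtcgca
Hilpda chr6:29272376-29272625, plus strand: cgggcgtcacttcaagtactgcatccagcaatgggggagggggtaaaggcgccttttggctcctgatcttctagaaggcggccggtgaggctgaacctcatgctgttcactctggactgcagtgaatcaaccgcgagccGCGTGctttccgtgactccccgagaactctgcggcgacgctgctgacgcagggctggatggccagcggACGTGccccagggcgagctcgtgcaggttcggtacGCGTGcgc
Ldha chr7:46845554-46845803, plus strand: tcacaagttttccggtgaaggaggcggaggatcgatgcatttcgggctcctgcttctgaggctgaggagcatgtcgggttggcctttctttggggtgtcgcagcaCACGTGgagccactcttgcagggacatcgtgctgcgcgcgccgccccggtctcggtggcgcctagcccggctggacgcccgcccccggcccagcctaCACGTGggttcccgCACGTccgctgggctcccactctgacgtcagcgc
Bnip3 chr7:138909507-138909756, minus strand: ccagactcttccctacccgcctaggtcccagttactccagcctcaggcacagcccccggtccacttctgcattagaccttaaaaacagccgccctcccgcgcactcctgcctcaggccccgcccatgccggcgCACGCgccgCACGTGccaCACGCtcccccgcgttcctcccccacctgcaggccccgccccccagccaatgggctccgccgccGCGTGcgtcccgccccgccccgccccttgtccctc

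Ankrd37 has 4 matches, centred 239, 153, 150 and 4 bases upstream of the start. Ldha has 5, all ACGTG, of which 4 form 2 E-boxes, and Bnip3 has 5, of which 2 form 1 E-box. Hilpda has 3, Ddit4 has 2, and Kdm3a and Narf have 1 each, 25 and 127 bases upstream. The starts are those of RefSeq transcripts, and GENCODE M21 places some of these bases inside a gene: the windows of Ankrd37 (chromosome 8, 45996902 to 46005707) and Ldha (chromosome 7, 46841475 to 46855627) lie wholly within the annotated gene, as do the 3 Hilpda matches (chromosome 6, 29272488 to 29275446), and the Kdm3a match lies within Kdm3a (chromosome 6, 71588972 to 71632990).

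**Figure D1:**
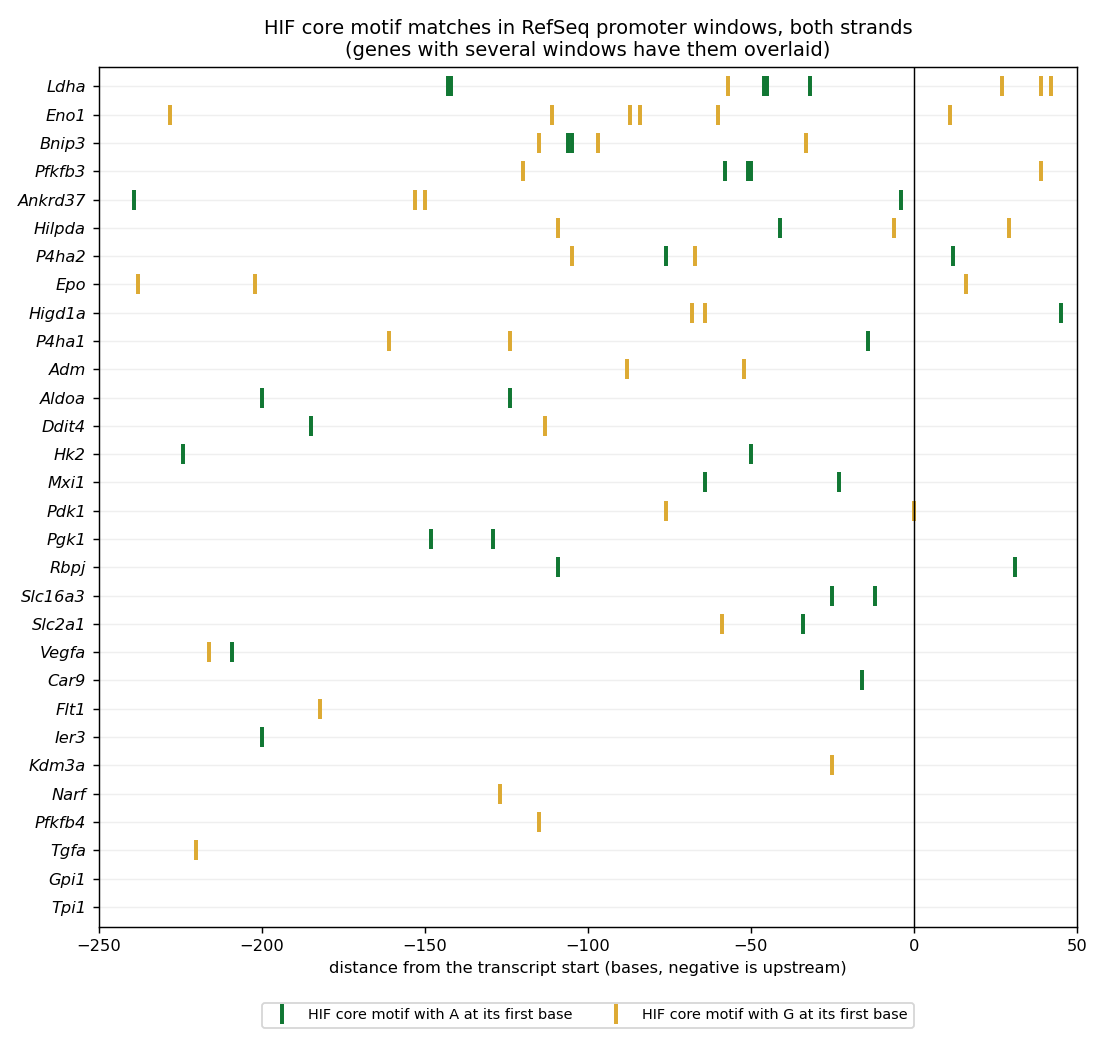
Positions of the HIF core motif in the promoter windows of 30 genes. The horizontal axis is the distance in bases from the transcript start, each tick is the centre of 1 match on either strand, green ticks begin with A and yellow ticks with G; Ldha, with 9 matches over 2 windows, is at the top, and Gpi1 and Tpi1 have none.

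A gene was tested where at least 3 of the 6 libraries reached 1 TPM, which held for 11440 genes and for 25 of the 35 HIF targets. The other 10 were Adm, Pdgfb, Epo, Hk2, Pfkfb4, Slc16a3, Car9, Lox, Ier3 and Ankrd37. They stayed at or below 1.78 TPM except for 1 library of Ankrd37 at 4.70 TPM. Epo, which encodes the hormone erythropoietin, was listed at 0 in all 6 libraries. Nearest to the limit were Adm, the gene of the vasodilator adrenomedullin, which reached 1 TPM in 2 libraries, and Hilpda, the tested gene with the lowest mean, at 1.70 to 2.53 TPM.

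No HIF target gene differed between the labels at an adjusted p below 0.05 (limma on log2(TPM + 1), Benjamini-Hochberg over all tested genes). The adjusted p-values of the 25 lay at 0.993 to 0.994. Across the transcriptome the same test called no gene higher (0%) and 1 lower (0.00874%) under the KO label. Of the 25, 14 had a difference above 0 and 11 below, against 74.5% and 25.5% of all tested genes. The median difference of the 25 was +0.04 on the log2(TPM + 1) scale, against +0.09 over all tested genes. Median-ratio scaling brought the median over all tested genes to -0.002 and that of the HIF targets to -0.05. Then 10 of the 25 lay above 0 and 15 below, against 49.6% and 50.4% of all tested genes.

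**Figure D2:**
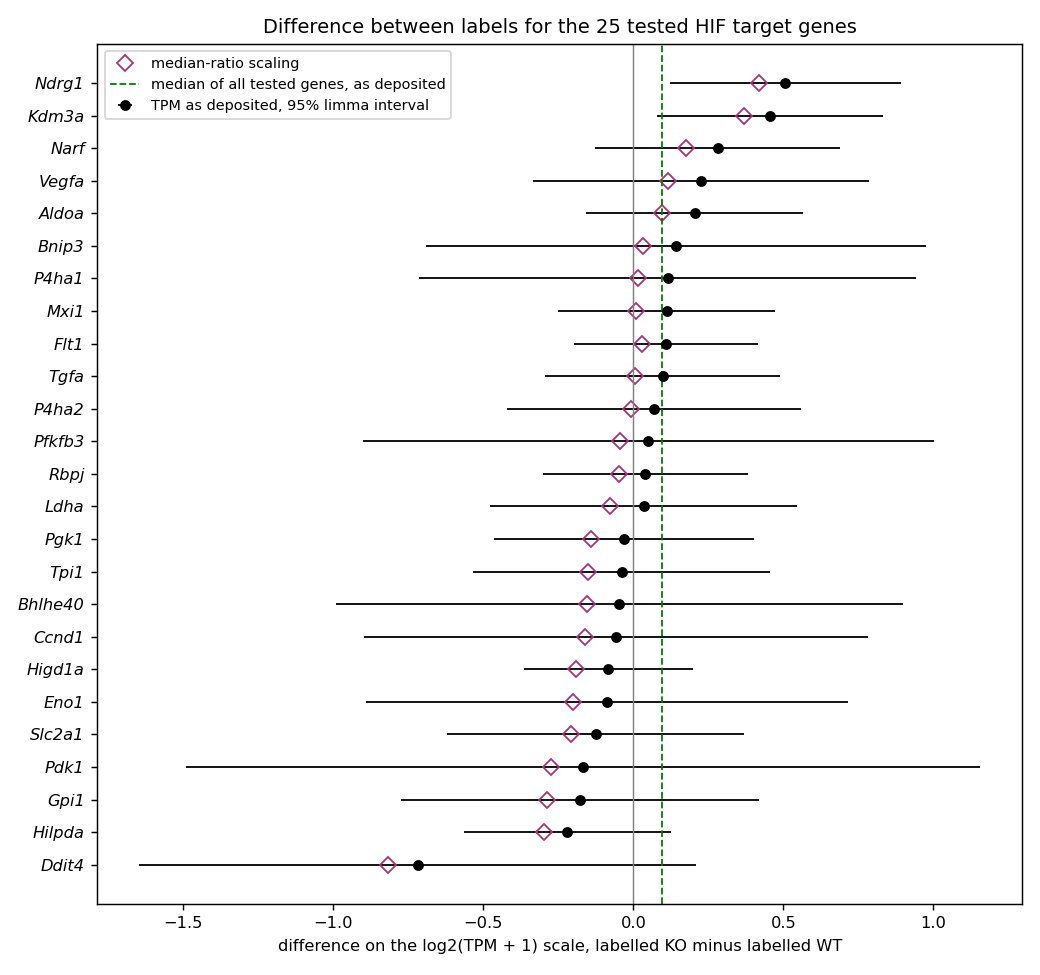
Difference between the labels for the 25 tested HIF target genes, on the log2(TPM + 1) scale (horizontal axis, KO minus WT). Black points and bars are the limma estimate and its 95% interval, open diamonds the same difference after median-ratio scaling, and the dashed line the median of all tested genes; the intervals of Ndrg1 and Kdm3a lie above 0 and those of the other 23 genes include 0.

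Among genes of transcription, chromatin and the cell cycle, Kdm3a had the largest difference between labels. It encodes a histone demethylase that removes methyl groups from lysine 9 of histone H3 and is induced by HIF. Kdm3a was at 3.57, 2.67 and 3.52 TPM under the WT label and at 4.91, 4.05 and 5.54 TPM under the KO label. The groups did not overlap, as in 8.23% of all tested genes for KO above WT. Means were 3.25 ± 0.505 and 4.83 ± 0.749 TPM (SD, n = 3 each). On the log2(TPM + 1) scale the libraries labelled KO were higher by 0.46, with a standard error of 0.16 (limma, unadjusted p = 0.024, adjusted p = 0.993). After median-ratio scaling the difference was +0.37, the unadjusted limma p was 0.077 and the groups overlapped.

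Narf, a gene for a prelamin A-binding protein of the nucleus, was at 15.6, 9.97 and 12.8 TPM under the WT label and at 17.2, 14.1 and 15.4 TPM under the KO label. The ranges overlapped, and the KO-labelled library was the higher of each same-numbered pair (limma, difference +0.28, unadjusted p = 0.151, or 0.047 once the fit had a block for the replicate number). With the block and median-ratio scaling the difference was +0.18 and the unadjusted limma p was 0.138. Without WT replicate 2 the difference was +0.13, and without WT replicate 1 it was +0.42. The clock and hypoxia repressor gene Bhlhe40 was at 55.3, 37.7 and 23.2 TPM under the WT label and at 36.2, 56.5 and 21.3 TPM under the KO label. It varied 2.39-fold and 2.65-fold within the labels, and replicate 3 was the lowest library of both. Ccnd1, which encodes cyclin D1, was at 7.09, 11.7 and 8.33 TPM under the WT label and at 13.1, 10.3 and 4.34 TPM under the KO label, with full overlap. Mxi1, which encodes an antagonist of MYC, ran from 9.995 to 13.9 TPM, and Rbpj, the DNA-binding partner of Notch, from 3.35 to 4.56 TPM.

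Among genes of mitochondria, lipid droplets and stress, Ndrg1 was higher in every library labelled KO. Ndrg1 (chromosome 15, 66929318 to 66969640), a stress-responsive gene widely used as a hypoxia marker, was at 2.65, 2.95 and 2.97 TPM under the WT label and at 3.47, 4.84 and 5.27 TPM under the KO label. Mean levels were 2.86 ± 0.178 and 4.53 ± 0.943 TPM (SD, n = 3 each). The difference was +0.51 with a standard error of 0.16 on the log2(TPM + 1) scale (limma, unadjusted p = 0.017, adjusted p = 0.993). Median-ratio scaling brought it to +0.42 with an unadjusted limma p of 0.053, and the groups then overlapped.

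Kdm3a and Ndrg1 were the 2 HIF targets of 25 at an unadjusted limma p below 0.05 with higher values under the KO label, against 2.76% of all tested genes, and none had lower values at that p, against 0.385%. They were also the 2 of 25 tested HIF targets whose groups did not overlap, a share close to the 8.23% of all tested genes for KO above WT. For KO below WT there was none, against 0.857%. Which HIF targets had an unadjusted limma p below 0.05 in the higher direction depended on single libraries. Both genes remained without WT replicate 3 and neither without KO replicate 3. Kdm3a alone of the pair remained without WT replicate 1 or KO replicate 2, and Ndrg1 alone without WT replicate 2 or KO replicate 1. Narf joined without WT replicate 1, Vegfa without KO replicate 1 (0.0496) and P4ha1 without KO replicate 2 (0.030). For the runs without 1 library, no share over all tested genes was taken. After median-ratio scaling none of the 25 had an unadjusted limma p below 0.05, against 1.31% of all tested genes in the higher and 1.26% in the lower direction, and no HIF target had its KO-labelled libraries all above the others, against 3.44%. An exact permutation test of 3 libraries against 3 cannot go below p = 0.10.

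Ankrd37 encodes an ankyrin repeat protein and is a known direct HIF target. It was at 0.702, 0.714 and 0.229 TPM under the WT label and at 0.942, 4.70 and 0.968 TPM under the KO label. The groups did not overlap, against 6.83% of the 23500 genes above 0 in any library for KO above WT and 1.17% for KO below WT. KO replicate 2 alone reached 1 TPM, so the gene did not pass the filter and was not tested. Pfkfb4, with a single high library as well, was at 0.934 TPM in KO replicate 2 and between 0.115 and 0.370 TPM in the others.

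Hilpda, whose small protein sits on lipid droplets and inhibits lipolysis, was at 2.53, 1.91 and 2.43 TPM under the WT label and at 1.70, 1.96 and 1.79 TPM under the KO label. WT replicate 2 fell within the KO range (limma, difference -0.22, standard error 0.15, unadjusted p = 0.175). After median-ratio scaling the groups no longer overlapped, with KO below WT, against 3.52% of all tested genes. The difference was then -0.30 and the unadjusted limma p was 0.074.

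Ddit4, which encodes an inhibitor of mTORC1 induced by hypoxia and by other stresses, had the most negative difference of the 25. It was at 4.19, 10.7 and 10.9 TPM under the WT label and at 7.39, 4.08 and 2.80 TPM under the KO label. WT replicate 1 fell within the KO range, and KO replicate 1 lay above it. The difference was -0.72 with a standard error of 0.40 (limma, unadjusted p = 0.111), and the 95% interval ran from -1.65 to +0.21. It was -1.11 without WT replicate 1 and -1.03 without KO replicate 1, both with an unadjusted limma p below 0.05, and -0.46 without KO replicate 3.

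The mitophagy receptor gene Bnip3 was at 148, 199.8 and 92.4 TPM under the WT label and at 145, 237 and 107 TPM under the KO label. The numbers 1, 2 and 3 kept the same order in both labels, with 2 the highest and 3 the lowest. The label difference was +0.14 with a standard error of 0.36, which fell to 0.09 when the replicate number entered the limma fit as a block. Even then the unadjusted limma p was 0.173. Higd1a, which encodes a small protein of the inner mitochondrial membrane, was at 42.1, 47.5 and 40.9 TPM under the WT label and at 40.8, 38.4 and 43.8 TPM under the KO label. It was among the steadiest, with at most a 1.16-fold range within a label. The immediate early gene Ier3 stayed between 0.337 and 0.807 TPM.

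**Figure D3:**
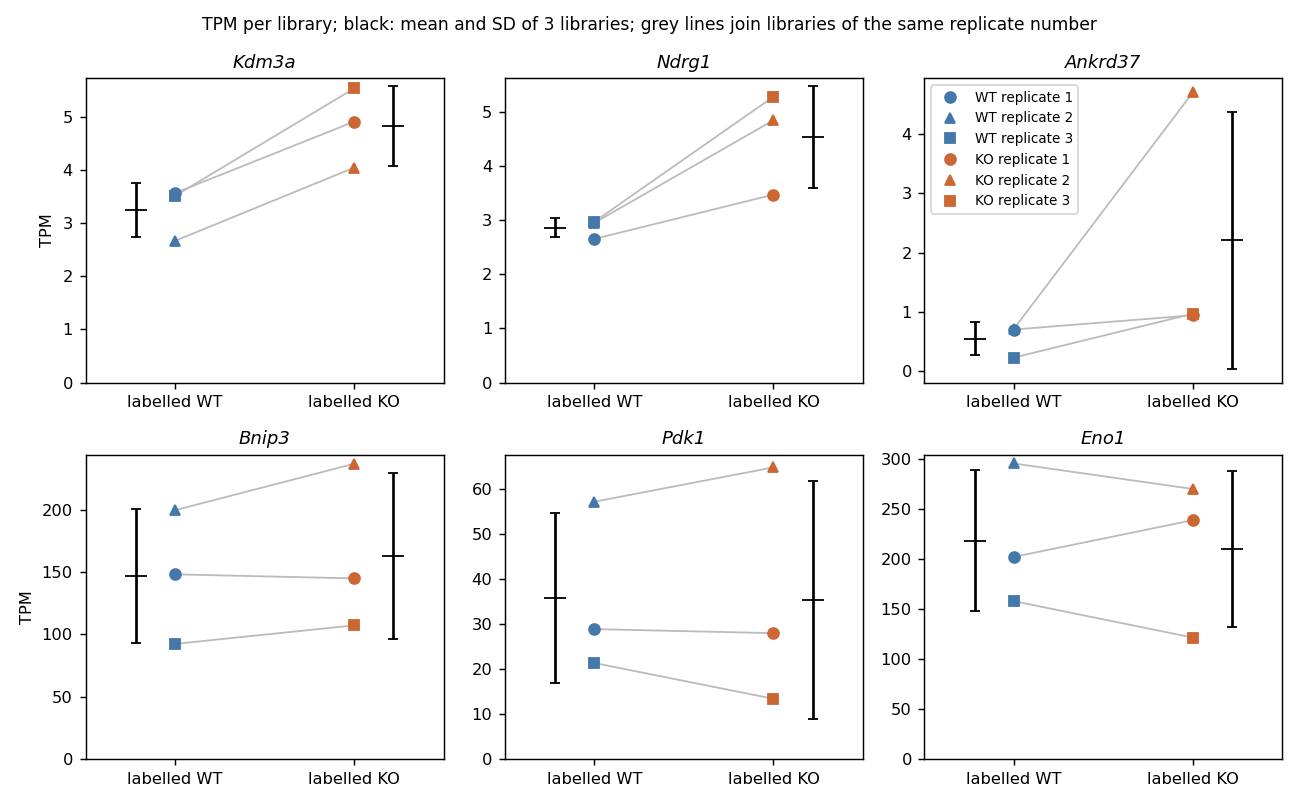
TPM in each library for 6 HIF target genes (vertical axes start at or just below 0). Points are libraries, black bars the mean and SD of 3 libraries, and grey lines join libraries of the same replicate number; Kdm3a, Ndrg1 and Ankrd37 do not overlap between labels, whereas Bnip3, Pdk1 and Eno1 overlap and keep replicate 2 at the top and replicate 3 at the bottom of both labels.

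Of the 2 tested genes of pyruvate and acid disposal, Pdk1 varied more. It encodes a mitochondrial kinase that inhibits pyruvate dehydrogenase, the enzyme complex that turns pyruvate into acetyl-CoA. Pdk1 was at 28.9, 57.2 and 21.3 TPM under the WT label and at 27.96, 64.8 and 13.4 TPM under the KO label. The highest library was 2.68 times the lowest under the WT label and 4.85 times under the KO label, while the group means were 35.8 ± 18.9 and 35.4 ± 26.5 TPM (SD, n = 3 each). The limma interval of the difference, -1.49 to +1.16 on the log2(TPM + 1) scale, does not exclude a change of 2-fold either way. Ldha, the lactate dehydrogenase subunit gene and the most abundant of the 35, was at 708, 509.7 and 466 TPM under the WT label and at 700.3, 458 and 563 TPM under the KO label. Replicate 1 was the highest of both labels, unlike Pdk1. The lactate exporter gene Slc16a3 did not exceed 0.51 TPM, and Car9, which encodes a surface carbonic anhydrase, did not exceed 0.144 TPM.

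Of 9 genes of glucose entry and glycolysis, 7 were tested. A difference below 0 was found for 5 of them, against 25.5% of all tested genes, and each was smaller than its standard error. After median-ratio scaling 1 of the 7 lay above 0, against 49.6% of all tested genes. Eno1, which encodes enolase, was at 202, 296 and 158 TPM under the WT label and at 239, 270.1 and 121 TPM under the KO label. Tpi1, encoding triosephosphate isomerase, was at 289, 327 and 238 TPM and at 322, 313 and 206 TPM. Both genes overlapped between labels and were lowest in replicate 3 of each. Pgk1 (phosphoglycerate kinase) lay between 156 and 234 TPM, Gpi1 (glucose-6-phosphate isomerase) between 42.1 and 88.4 TPM, and Aldoa (aldolase A) between 39.5 and 59.3 TPM. The differences of these 5 enzymes ran from -0.18 for Gpi1 to +0.20 for Aldoa, and the standard errors from 0.15 to 0.34.

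The glucose transporter gene Slc2a1 (GLUT1) was at 2.12, 3.73 and 2.67 TPM under the WT label and at 2.02, 3.25 and 2.24 TPM under the KO label. The KO-labelled library was the lower of each same-numbered pair, against 4.29% of all tested genes, but the difference of -0.13 was smaller than its standard error of 0.21. Pfkfb3, whose enzyme makes the activator of phosphofructokinase, was at 10.7, 3.68 and 8.37 TPM and at 6.80, 4.61 and 11.99 TPM. Its lowest library was replicate 2 under both labels, opposite to Bnip3, Pdk1 and Eno1. Hexokinase 2 (Hk2) did not exceed 0.334 TPM.

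Among secreted factors and vascular signals, Vegfa, the main growth factor for blood vessels, was at 28.4, 41.3 and 31.1 TPM under the WT label and at 27.5, 49.1 and 43.6 TPM under the KO label. The lowest and the highest library both carried the KO label. Tgfa, an EGF receptor ligand, was at 6.16, 4.21 and 4.86 TPM and at 5.56, 4.68 and 6.19 TPM, again with overlap. Flt1, a VEGF receptor gene of endothelial cells, ran from 2.16 to 2.35 TPM under the WT label and from 2.34 to 2.66 TPM under the KO label, so that the groups just overlapped. The summed endothelial markers, given above, also overlapped. Pdgfb, the gene of a platelet-derived growth factor chain, did not exceed 0.752 TPM.

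Among collagen-modifying enzymes, P4ha1 and P4ha2 encode the alpha subunits of prolyl 4-hydroxylase. P4ha1 was at 5.68, 8.20 and 8.53 TPM under the WT label and at 11.2, 4.01 and 11.2 TPM under the KO label. KO replicate 2 was the lowest of all 6, and the other libraries labelled KO were the highest. P4ha2 was at 2.90, 1.92 and 1.98 TPM and at 3.29, 1.79 and 2.26 TPM, highest in replicate 1 of both labels. The crosslinking enzyme gene Lox did not exceed 0.125 TPM.

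**Figure D4:**
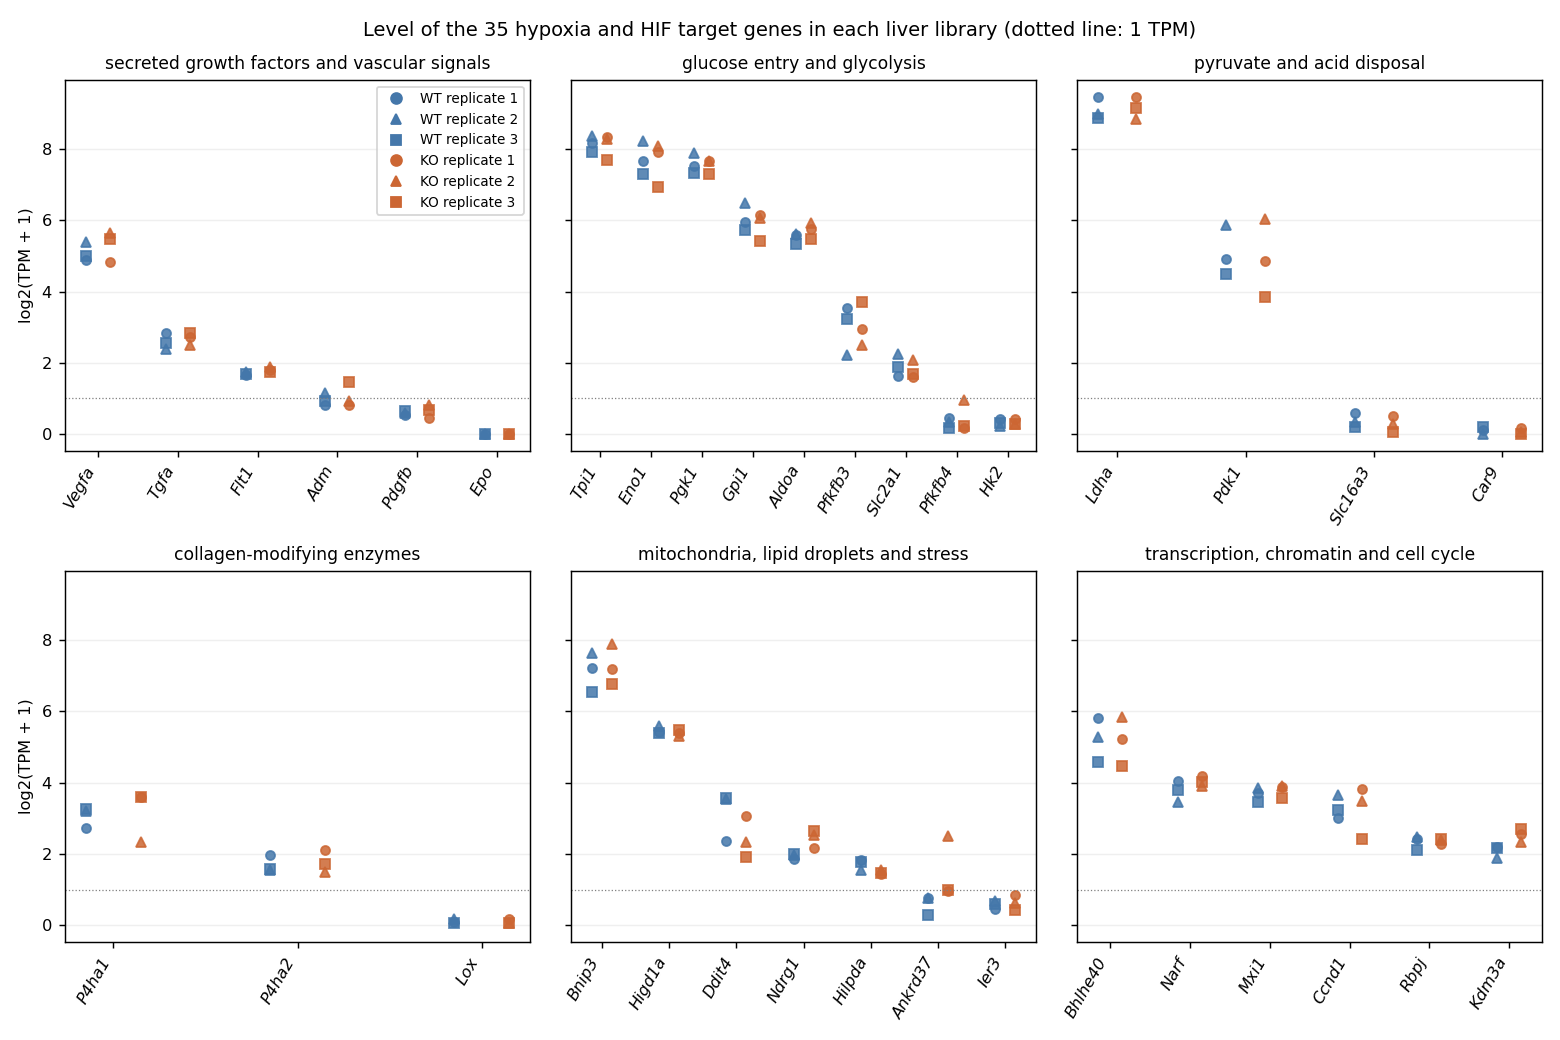
Level of all 35 genes in each library, in panels by role. The vertical axis is log2(TPM + 1), the dotted line marks 1 TPM, colours give the label and shapes the replicate number; Ldha is the most abundant and Epo is listed at 0 throughout, and in most genes the 2 colours cover the same range.

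Libraries with the same replicate number resembled each other in many of these genes more than libraries with the same label. The variation of each gene over the 6 libraries, as a sum of squares on the log2(TPM + 1) scale, was split between label, replicate number and remainder. The median share of the number was 75.8% over the 25 tested HIF targets and 53.5% over all tested genes, and that of the label was 6.94% and 11.7%. The number took the larger share in 19 of 25 HIF targets (76.0%), and in 75.9% of all tested genes. These shares are descriptions, and the number has more freedom to take up variation than the label because it has 3 values. In Bnip3 the number took 95.9% and the label 2.32%, and in Pdk1 93.7% and 1.21%. Kdm3a and Ndrg1 were the other way round, with 28.7% and 20.1% for the number and 69.8% and 72.9% for the label. Their groups do not overlap in the same 6 libraries, so a large label share adds no support. Flt1 (57.8%), Hilpda (57.7%), Higd1a and Ddit4 also gave more to the label than to the number.

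In 9 of the 25 (36.0%) replicate 2 was the highest library of both labels, as in 19.1% of all tested genes. In 6 of them (24.0%, against 10.5%) replicate 3 was also the lowest of both: Aldoa, Pgk1, Eno1, Pdk1, Bnip3 and Mxi1. Replicate 3 was the lowest library of both labels in 9 of the 25 (36.0%), against 35.2% of all tested genes. Averaged over the 7 tested genes of glucose entry and glycolysis, the deviation from each gene's mean was +0.17 and +0.11 in replicate 2 under the WT and KO labels and -0.16 and -0.23 in replicate 3. No such average was taken over all tested genes. A total of 8 of the 25 genes varied at least 2-fold within a label, against 20.5% of all tested genes. WT replicate 2 and KO replicate 2 were each the highest of all 6 libraries in 7 HIF targets (28.0%), against 10.6% and 29.1% of all tested genes. KO replicate 3 was the lowest of all in 8 (32.0%, against 20.3%), and WT replicate 3 in 4 (16.0%, against 41.6%). The labels do not say what the numbers stand for, and the origin of the pattern was not tested.

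**Figure D5:**
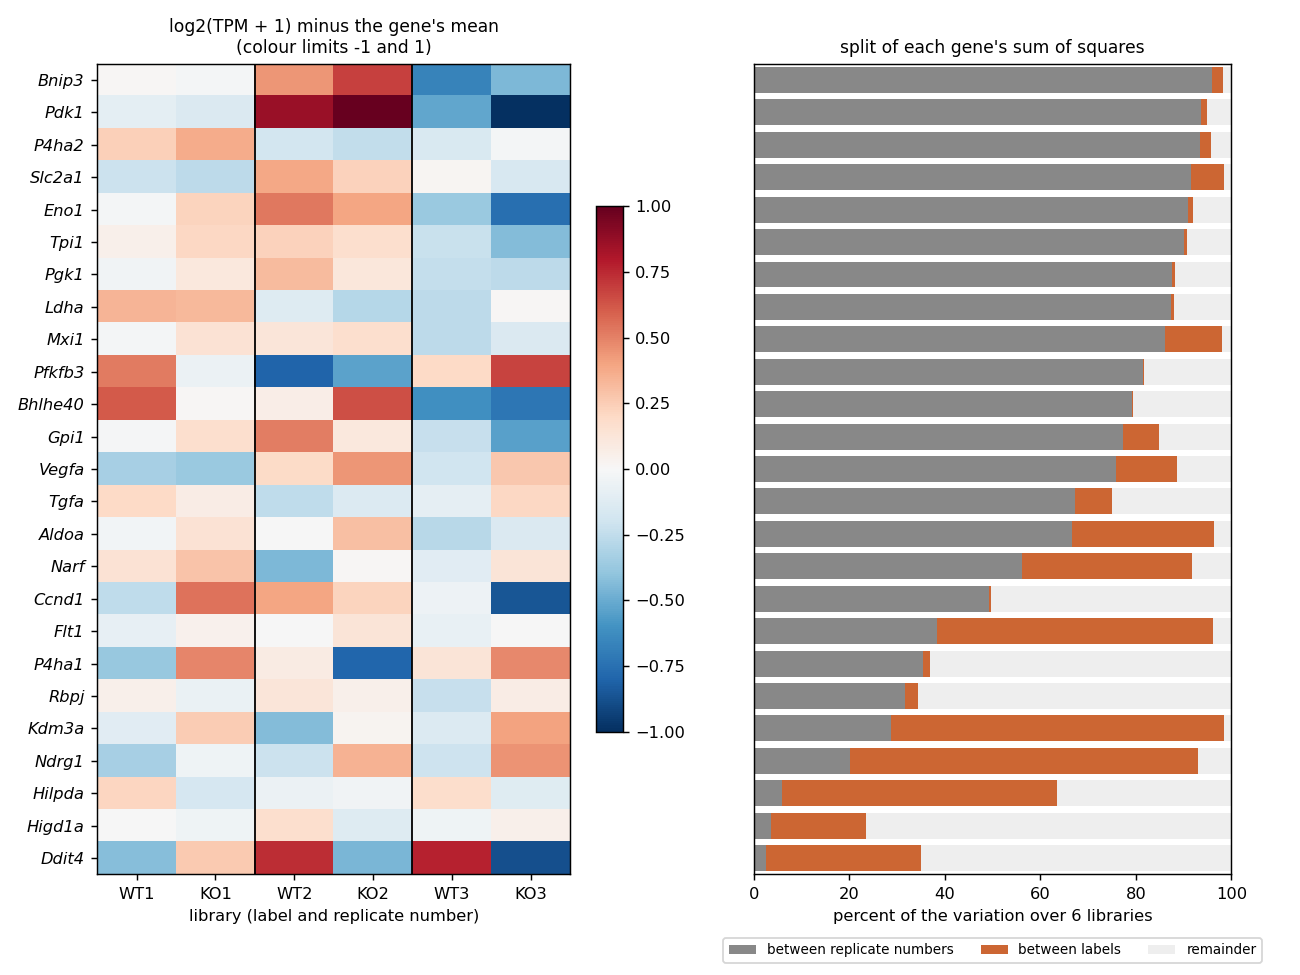
Left, log2(TPM + 1) of each tested HIF target minus its mean over the 6 libraries, with libraries of the same replicate number side by side. Right, the percent of each gene's sum of squares between replicate numbers, between labels and left over. Bnip3 and Pdk1 at the top give most to the number (95.9% and 93.7%), and Kdm3a and Ndrg1 near the bottom give more to the label.

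Within same-numbered pairs, the KO-labelled library was higher in all 3 pairs for 6 of the 25 genes, namely Flt1, Aldoa, Ndrg1, Kdm3a, Mxi1 and Narf, against 26.9% of all tested genes. It was lower in all 3 pairs for 1 of the 25, Slc2a1, against 4.29%. When the limma fit had the number as a block, 3 of the 25 had an unadjusted limma p below 0.05 with higher values under the KO label, against 5.26% of all tested genes. They were Kdm3a (0.013), Ndrg1 (0.014) and Narf (0.047), each with an adjusted p of 0.724. None of the 25 had lower values at that p, against 0.918%.

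Beyond the 35, 56 further genes known as HIF targets were read from the same fit, and none of the 47 tested passed. A difference above 0 was found for 32 and below 0 for 15, against 74.5% and 25.5% of all tested genes. The median of +0.06 lay below the +0.09 of all tested genes, and after median-ratio scaling 19 lay above 0 and the median was -0.03. The gene with the smallest p was Klf10, a TGF-β-induced transcription factor, at 4.95, 4.78 and 3.498 TPM under the WT label and at 5.12, 6.96 and 7.15 TPM under the KO label (limma, unadjusted p = 0.036, adjusted p = 0.993). No other of the 47 had an unadjusted limma p below 0.05 without the block. Of all tested genes, 2.76% did in the higher and 0.385% in the lower direction. After median-ratio scaling the unadjusted limma p of Klf10 was 0.062. When the replicate number was blocked, Klf10 was at an unadjusted limma p of 0.055, and 3 genes lay below 0.05. P4hb, which encodes protein disulfide isomerase, was the 1 higher under the KO label (0.049), against 5.26% of all tested genes. Ppp1r3b and Ppp1r3c were the 2 lower, against 0.918%. Wsb1, which encodes a ubiquitin ligase subunit, was at 8.77, 5.68 and 5.65 TPM and at 7.83, 10.2 and 24.9 TPM, with KO replicate 3 far above the rest. Irs2, the insulin receptor substrate gene, was at 1.53, 2.44 and 2.01 TPM and at 2.12, 2.88 and 4.89 TPM, and was also highest in KO replicate 3.

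Jmjd6, which encodes a protein hydroxylase, was at 10.3, 9.42 and 8.003 TPM under the WT label and at 11.4, 12.6 and 9.79 TPM under the KO label. Ppp1r3c and Ppp1r3b encode glycogen-targeting subunits of protein phosphatase 1, and both overlapped between labels. Ppp1r3c was at 28.6, 11.5 and 25.6 TPM under the WT label and at 18.4, 10.95 and 8.55 TPM under the KO label (limma, difference -0.72, adjusted p = 0.993, unadjusted p = 0.098, or 0.041 with the block). Ppp1r3b was at 90.03, 108.8 and 81.4 TPM and at 47.7, 108.1 and 50.1 TPM, with replicate 2 the highest library of both labels (limma, difference -0.53, adjusted p = 0.993, unadjusted p = 0.126, or 0.029 with the block). Of 17 genes for HIF subunits and oxygen sensing, 15 were tested. Of these, 12 had a difference above 0, where 74.5% of all tested genes did. An unadjusted limma p below 0.05 with higher values under the KO label was found for 2, against 2.76% of all tested genes, and for 3 with the block, against 5.26%, Epas1 being the addition. The 2 were Ep300, a coactivator gene at 4.45 ± 0.324 and 6.01 ± 0.564 TPM (SD, n = 3 each), and Rbx1, a ubiquitin ligase subunit gene at 24.96 ± 1.99 and 33.1 ± 5.04 TPM. After median-ratio scaling 7 of the 15 differences were above 0. The unadjusted limma p was then 0.080 for Ep300 and 0.074 for Rbx1.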

How the data were processed

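Total RNA from liver was sequenced in 6 libraries. The authors deposited 1 table of TPM per gene, in which every column has the same sum, so depth is unknown and no count model was used. The tools named, per the submitters' processing notes, are HISAT2, featureCounts, fastp, limma and DESeq2, with the build mm10 and without versions, roles or order. The assembler behind joined identifiers (those of Vegfa, Ldha, Bnip3 and Higd1a among the HIF targets), and whether counting used strand or shared reads, were not stated. A symbol was found for 51492 of 54323 Ensembl identifiers. Gene coordinates are from GENCODE M21, on the same build.

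Values were taken as log2(TPM + 1) and tested two-sided with limma 3.58.1 (R 4.3.3, variance trend). The 11440 genes that reached 1 TPM in 3 or more libraries were tested, and calls needed an adjusted p below 0.05. Fold changes on this scale understate those of low genes. The step was also run on simulated data with independent errors and no shared pattern of replicate numbers. That run gives no sensitivity for these libraries. The members, lists and tests were chosen with earlier results of these data known. Values in every library are given for members whose groups did not overlap or had an unadjusted p below 0.05, the 2 most abundant of each role, members averaging 2 TPM or more that varied at least 2-fold within a label, and Vegfa, Slc2a1, Hilpda, Bnip3, Ldha and Epo. Outside the members they are given for Epas1, Hif1a and the 6 other HIF targets with the smallest p. Ankrd37, Ep300, Rbx1 and P4hb were named after their values were seen.

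Spearman correlations between libraries lay between 0.945 and 0.978. After group means were removed, libraries sharing a number correlated at 0.16, 0.41 and 0.38, and other pairs across labels at -0.37 to 0.03. Removing group means makes the deviations within a label sum to 0, so positive correlations in some pairs go with negative ones in others. The replicate block was an alternative to the main fit. Its p-values rest on a pairing seen only in these same data, since no label says that numbers pair libraries. Transcripts of other genes with at least 95% identity over 200 bases were sought with BLAST 2.17.0. They were found for 8 members and held at most 1.36% of the summed TPM, for Pgk1, so shared reads are a limit mainly if counting left them out.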

Additional observations from a re-analysis of the deposited data

How the results depend on the processing

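No HIF target was called under any alternative run. There are 3 libraries a label, TPM gives no depth, and what limits the calls was not tested. The number of genes called over the transcriptome, 1 as reported, was 0 with a pseudocount of 5, with no filter, with a filter of 5 TPM, under quantile normalization, with the replicate block and with the replicate block and median-ratio scaling, and 0 to 2 when 1 library was left out. HIF targets with an unadjusted p below 0.05 and higher values under the KO label, 2 as reported, numbered 0 with a filter of 5 TPM, median-ratio scaling or quantile normalization, 3 with the replicate block, and 0 to 2 when 1 library was left out, not always the same genes. In the lower direction, 0 as reported, there were 0 to 1 (Ddit4, without WT replicate 1 or KO replicate 1). Non-overlapping HIF targets, 2 as reported, numbered 0 with a filter of 5 TPM, since neither gene passes it, and 1 under median-ratio scaling or quantile normalization (Hilpda, lower). There were 3 with no filter (Ankrd37 added) and 3 in TPM without the most abundant and mitochondrial genes (Hilpda added, lower). Shares of all tested genes at an unadjusted limma p below 0.05 were taken only for the main fit, median-ratio scaling and the replicate block. Shares without overlap were taken only for the main values, median-ratio scaling and no filter. The other counts of HIF targets at that p or without overlap have no such share beside them. Promoter matches fell from 28 genes to 19 with ACGTG alone. The median difference of the HIF targets ran from -0.09 to +0.14 when 1 library was left out.

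Of 36 named tested genes, 20 kept their direction in every alternative, among them Kdm3a, Ndrg1, Narf, Vegfa, Hilpda and Ddit4. With the replicate block and median-ratio scaling together, 2 HIF targets, Kdm3a and Ndrg1, had an unadjusted limma p below 0.05. For that run no share over all tested genes was taken. Under median-ratio scaling, with or without the replicate block, the log2 difference turned to -0.078 for Ldha, -0.0072 for P4ha2, -0.045 for Pfkfb3 and -0.049 for Rbpj. Quantile normalization turned it to -0.027 for Ldha, -0.0050 for P4ha1, -0.032 for P4ha2, -0.069 for Pfkfb3, -0.081 for Rbpj and -0.022 for Tgfa. TPM without the most abundant and mitochondrial genes turned it to -0.033 for Ldha, -0.0067 for Pfkfb3 and -0.014 for Rbpj. Leaving out 1 library turned it for 16 genes, with ranges of -0.16 to +0.40 for Bnip3, -0.38 to +0.30 for Bhlhe40, -0.34 to +0.36 for Ccnd1, -0.31 to +0.26 for Eno1, -0.0023 to +0.21 for Hif1a, -0.12 to +0.21 for Ldha, -0.10 to +0.54 for P4ha1, -0.10 to +0.21 for P4ha2, -0.73 to +0.37 for Pdk1, -0.34 to +0.33 for Pfkfb3, -0.27 to +0.035 for Slc2a1, -0.34 to +0.048 for Gpi1, -0.16 to +0.12 for Pgk1, -0.068 to +0.11 for Rbpj, -0.0072 to +0.22 for Tgfa and -0.16 to +0.17 for Tpi1. The cause was not tested. The genes outside the naming rule, and the median-ratio marker sums, were added after the data were seen.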
